A study of Mus musculus with 8 samples.

Results

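The genes described here are Dntt, Rag1 and Rag2, which make the variable part of antigen receptors. They were taken as every probe set annotated to one of these genes alone, which gave 3 of the 45141 probe sets on the array, 1 for each gene (Entrez Gene 21673 for Dntt, 19373 for Rag1 and 19374 for Rag2). Expression was measured in bone marrow progenitors of 4 groups with 2 arrays each, and replicate 1 and replicate 2 stand for separate processing dates. The groups were Nfil3 knockout (KO) prepro NK cells (preproNK), wild-type (WT) preproNK, Nfil3 knockout ALP cells (all lymphoid progenitors, ALP) and wild-type ALP. All of them, controls included, carried the ID2-GFP reporter, a fluorescent readout of the Id2 gene, and were sorted from lineage-depleted marrow. The sources used here do not give the construction of the knockout allele, the age of the mice or the number of mice behind a sample.

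Rag1 and Rag2 together form the recombinase that cuts DNA beside the V, D and J segments of antigen receptor genes. Dntt encodes terminal deoxynucleotidyl transferase (TdT), a polymerase that adds nucleotides without a template to the cut ends before they are joined. Their RNA first appears in early lymphoid progenitors of the marrow, well before B or T cells are formed. NK cells do not rearrange antigen receptor genes in order to develop, and NK cells form in mice that lack the recombinase. Nfil3 is a bZIP transcription factor that NK cells need for their development. The series addresses at which steps of that development Nfil3 is needed.

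The RefSeq table (GRCm38.p6) places Dntt at chr19:41029275-41059525, Rag2 at chr2:101624712-101632528 and Rag1 at chr2:101638252-101649532. Rag2 and Rag1 lie 5.72 kb apart on opposite strands, with their 3′ ends facing each other. The windows around the 3 gene starts are shown because Dntt and Rag2 RNA fell in the same comparison. Each runs from 250 bases before to 50 after the start in RefSeq, 5′ to 3′ on the strand of the gene, and capitals mark the E-box CANNTG, the sequence bound by E proteins, which Id2 inhibits. They are chr19:41029025-41029324 on the plus strand for Dntt, chr2:101649483-101649782 on the minus strand for Rag1 and chr2:101624462-101624761 on the plus strand for Rag2.
Dntt: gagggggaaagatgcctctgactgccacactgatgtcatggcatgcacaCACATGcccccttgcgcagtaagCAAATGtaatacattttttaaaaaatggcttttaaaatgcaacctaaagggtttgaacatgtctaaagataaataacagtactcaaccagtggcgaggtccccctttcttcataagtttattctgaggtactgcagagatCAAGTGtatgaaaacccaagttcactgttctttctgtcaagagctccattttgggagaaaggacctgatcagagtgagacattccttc
Rag1: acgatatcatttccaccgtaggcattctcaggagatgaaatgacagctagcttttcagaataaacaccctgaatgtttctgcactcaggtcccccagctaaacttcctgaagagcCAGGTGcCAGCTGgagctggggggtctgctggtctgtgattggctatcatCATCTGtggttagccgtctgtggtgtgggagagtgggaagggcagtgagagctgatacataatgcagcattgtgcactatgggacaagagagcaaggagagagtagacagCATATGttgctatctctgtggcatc
Rag2: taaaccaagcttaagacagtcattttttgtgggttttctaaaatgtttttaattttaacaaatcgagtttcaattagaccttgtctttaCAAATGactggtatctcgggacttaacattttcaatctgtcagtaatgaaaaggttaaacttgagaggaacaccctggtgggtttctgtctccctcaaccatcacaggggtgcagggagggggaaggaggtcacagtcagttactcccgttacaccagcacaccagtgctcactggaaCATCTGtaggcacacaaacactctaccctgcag
The Dntt window held 3 E-boxes, the Rag1 window 4 and the Rag2 window 2, counted on both strands. Of 32851 such windows in RefSeq, 72.3% held at least 1 E-box and 17.6% held 3 or more. The core TTANNTAA of sites bound by Nfil3, searched on both strands, was in none of the 3 windows and in 6.0% of all windows. The motifs do not overlap in these windows.

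Some arrays stood apart. The 4 ALP arrays and 3 of the preproNK arrays had 682 to 1498 tested genes at a log2 value of 8 or more, against 310 on WT preproNK replicate 2, whose values were compressed (SD across the array 1.39; 1.55 to 1.88 elsewhere). The log2 value of Nfil3 itself averaged 3.71 ± 0.19 in KO preproNK against 4.74 ± 0.01 in WT preproNK, and 3.78 ± 0.52 in KO ALP against 6.19 ± 0.98 in WT ALP (SD, n = 2 each). Whether its probe set lies in the deleted part is not known. Of 10 NK lineage markers 9 were tested. Averaged over genotypes, 3 were higher in preproNK (Tbx21, Il2rb and Klrk1) and 1 was lower (Cd244a). Of all tested genes 1.77% were called higher and 1.61% lower. Tbx21 and Klrk1 were below the array median on all ALP arrays and passed the filter through preproNK alone. Il2rb was below it on 2 KO ALP arrays and 1 WT ALP array. With values below an array's median set to that median, Tbx21 was at least 7.62-fold and Klrk1 at least 4.86-fold higher. Il2rb was 10.9-fold higher, and all 3 were still called (adjusted p = 0.0048, 0.0132 and 0.00447 by limma). Klrb1c, Klrd1, Eomes, Prf1 and Gzma were not called, and Ncr1, a receptor of maturing NK cells, was below the filter on dim values. Of 12 T lineage markers 10 were tested, and 8 were called higher and 0 lower in preproNK over both genotypes. The summed level of the 12 T lineage markers was 4254 to 5018 in KO preproNK and 712.1 to 1629 in WT preproNK, against 321.2 to 323.2 in KO ALP and 352.1 to 387.3 in WT ALP (linear scale). The summed level of the 10 NK markers was 1520 to 1594 in KO preproNK and 377.7 to 673.1 in WT preproNK. In KO ALP it was 351.4 to 473.9, and in WT ALP 409.8 to 421.8. Within KO cells 3 NK and 9 T lineage markers were called higher, beside 141 of the 11583 tested genes. Within WT cells 0 NK and 0 T lineage markers were called higher, beside 4 of the 11583. T lineage sums were thus higher on every preproNK array than on any ALP array, and NK sums on all but WT preproNK replicate 2. The part of these transcripts in the results below was not tested.

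Dntt, the gene of TdT, was among the brightest signals in ALP and close to the array median in preproNK. Its log2 value was 4.47 and 4.48 in KO preproNK and 4.76 and 4.65 in WT preproNK, against 10.86 and 10.48 in KO ALP and 10.87 and 10.17 in WT ALP (replicate 1 and replicate 2 of each). All 4 preproNK arrays lay far below all 4 ALP arrays, a separation in this direction seen for 6.97% of the 11583 genes tested. On the ALP arrays only 97 to 202 of the 45141 probe sets were brighter, 0.215% to 0.447%. On the preproNK arrays 16523 to 18517 were brighter, and Dntt stood 0.38 to 0.74 log2 above the array median.

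The stage difference of Dntt was the most negative of all 11583 genes. Averaged over both genotypes, preproNK minus ALP was -6.00 log2 (SE 0.27, 95% interval -6.63 to -5.38), which is 64.2-fold lower, with an adjusted p of 0.000286 by limma. It was -6.20 (SE 0.38) in KO cells (adjusted p = 0.00221) and -5.81 (SE 0.38) in WT cells (adjusted p = 0.00519). The same comparisons called 1.61%, 0.535% and 0.0604% of all tested genes as lower. Dntt lay close to the array median on the preproNK arrays, so the 64.2-fold may understate the fall. Within replicate 1 the difference was -6.39 in KO and -6.11 in WT, and within replicate 2 it was -6.00 in KO and -5.52 in WT. An exact two-sided permutation test of the 4 preproNK against the 4 ALP arrays gave p = 0.0286, the smallest that this design allows. The size held without any single array (-6.39 to -6.01 in KO, -6.16 to -5.46 in WT). The call was lost in KO without KO preproNK replicate 1 (adjusted p = 0.0682), KO preproNK replicate 2 (0.0752) or KO ALP replicate 1 (0.0651), and in WT without WT ALP replicate 1 (0.0791) or with the WT arrays fitted alone (0.326). In bulk samples, fewer cells that hold a transcript and less of it per cell cannot be told apart.

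**Figure D1:**
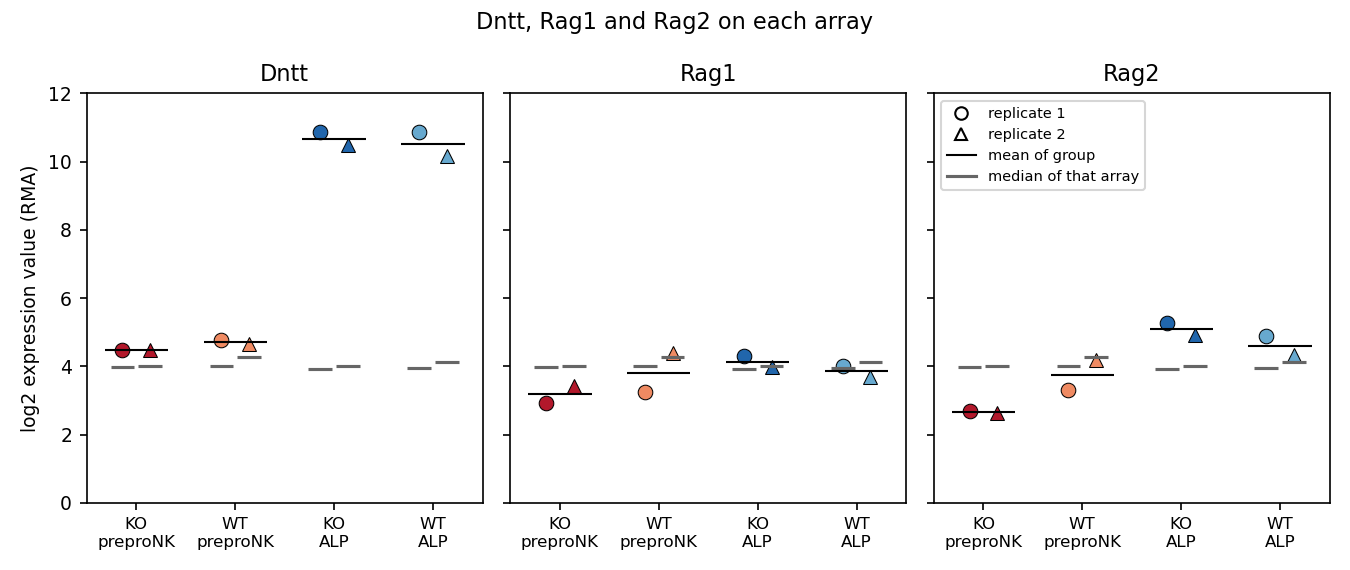
RMA log2 expression value of Dntt, Rag1 and Rag2 on each of the 8 arrays, by group; circles are replicate 1, triangles replicate 2, black lines the mean of 2 arrays and short grey lines the median of that array over all probe sets. Dntt lies above 10 on every ALP array and between 4.47 and 4.76 on the preproNK arrays, Rag2 is above the array median on the ALP arrays alone, and Rag1 stays near the median or below it.

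Rag2, the recombinase subunit that supports cutting by Rag1 and reads a histone mark of active chromatin, was weakly expressed in ALP and below the array median in preproNK. Its log2 value was 2.70 and 2.65 in KO preproNK and 3.31 and 4.18 in WT preproNK, against 5.29 and 4.91 in KO ALP and 4.89 and 4.32 in WT ALP. The preproNK arrays again lay below all ALP arrays, also within KO cells, where 20.6% of tested genes did so, and within WT cells, where 14.9% did, but the closest pair, 4.18 on WT preproNK replicate 2 and 4.32 on WT ALP replicate 2, differed by little. Both of these arrays had the narrowest ranges of the 8. Since Rag2 passed the filter through its ALP values alone, its fit over all genes without a filter is given too.

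Averaged over genotypes, Rag2 fell by 1.64 log2 (SE 0.30, 95% interval -2.35 to -0.94, adjusted p = 0.0322 by limma, and 0.0391 without the filter). In KO cells it fell by 2.42 (SE 0.43, adjusted p = 0.0386, 0.0496 without the filter). In WT cells the difference was -0.86 (SE 0.43, 95% interval -1.86 to 0.14, adjusted p = 0.759), and it was -1.58 within replicate 1 and -0.14 within replicate 2. With values below an array's median set to that median, Rag2 was at least 1.72-fold lower over both genotypes and at least 2.15-fold lower in KO, and neither was called (adjusted p = 0.157 and 0.235). The exact two-sided permutation test of 4 preproNK against 4 ALP arrays gave p = 0.0286, and p = 0.0571 without any 1 of the 4 ALP arrays, where 0.0286 remained the smallest possible. The limma call over both genotypes rested on single arrays. It was lost without either KO preproNK array (adjusted p = 0.18 and 0.142 without replicate 1 and replicate 2), without either KO ALP array (0.171 and 0.105) and without either WT ALP array (0.138 and 0.0639). It held without WT preproNK replicate 1 (-1.42, adjusted p = 0.0193) and without WT preproNK replicate 2, the array with compressed values (-1.86, adjusted p = 0.00596). In KO cells the call was lost without KO preproNK replicate 1 (0.347) or replicate 2 (0.292), KO ALP replicate 1 (0.361) or replicate 2 (0.212), and WT ALP replicate 1 or replicate 2 (0.0645 each).

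Rag1, the subunit that holds the DNA-cutting site, gave no signal clearly above background in any group. Its log2 value was 2.94 and 3.42 in KO preproNK and 3.25 and 4.38 in WT preproNK, against 4.30 and 3.98 in KO ALP and 4.01 and 3.69 in WT ALP. It exceeded the array median on 3 of the 8 arrays, by at most 0.36 log2, and the highest value was on the compressed WT preproNK replicate 2. The stage difference was -0.50 over both genotypes (SE 0.33, 95% interval -1.26 to 0.26, adjusted p = 0.636 by limma). It was -0.96 in KO cells (SE 0.46, adjusted p = 0.597) and -0.04 in WT cells (SE 0.46, adjusted p = 0.996), where replicate 1 gave -0.76 and replicate 2 gave 0.69. The exact two-sided permutation p was 0.2 with all arrays and 0.0286, the smallest possible, without WT preproNK replicate 2, when the difference was -0.79. A probe set this close to background cannot separate a low level of Rag1 from none. In ALP all 3 genes were higher on the replicate 1 array than on the replicate 2 array in both genotypes, which was so for 51.3% of tested genes.

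**Figure D2:**
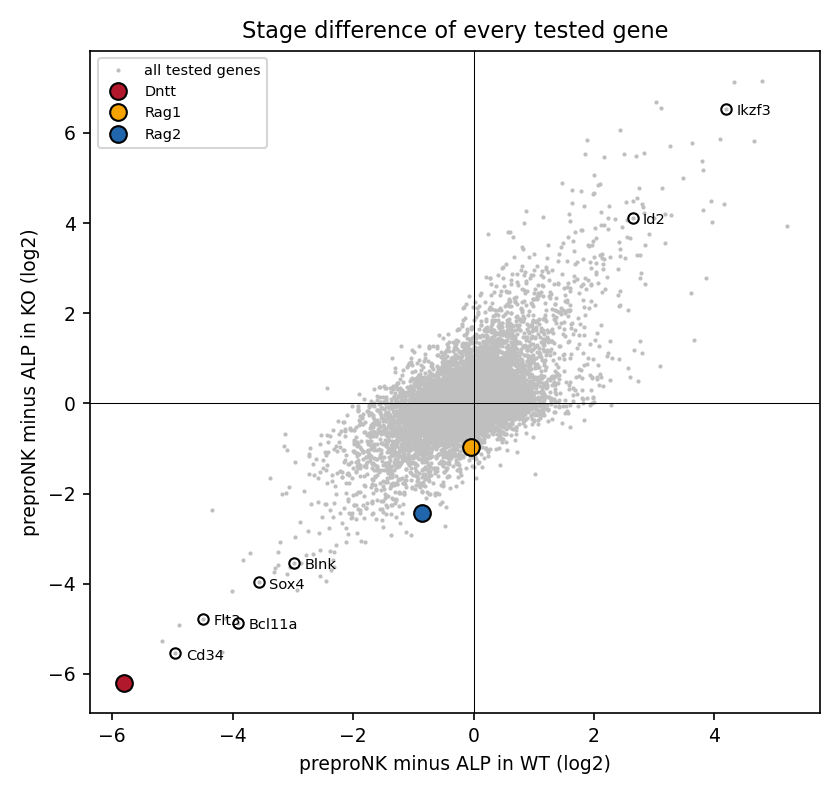
Log2 difference between preproNK and ALP for each of the 11583 tested genes, in WT cells on the x axis and in KO cells on the y axis. Dntt (-5.81 in WT, -6.20 in KO) is the lowest point on both axes, and Rag2 (-0.86, -2.42) lies below zero on both. Rag1 (-0.04, -0.96) lies within the cloud, with 50.9% of tested genes more negative in WT and 5.98% in KO.

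Between KO and WT cells Dntt differed by less than its error at both stages. In ALP, KO minus WT was 0.16 log2 (SE 0.38, 95% interval -0.73 to 1.04, adjusted p = 1 by limma), and KO and WT values overlapped. The difference was -0.01 within replicate 1 and 0.32 within replicate 2. In preproNK it was -0.23 (SE 0.38, 95% interval -1.12 to 0.66, adjusted p = 0.761). Both KO preproNK values lay below both WT preproNK values, as for 16.5% of tested genes. The intervals leave room for a change of about 1 log2 in either population. Dntt in preproNK lay close to the array median, so its difference there says little about its RNA. From high to low, the Dntt means were 10.67 ± 0.27 in KO ALP, 10.52 ± 0.49 in WT ALP, 4.70 ± 0.08 in WT preproNK and finally 4.48 ± 0.01 in the KO preproNK pair (SD, n = 2 each). Only the step between WT ALP and WT preproNK in that order passed the test.

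The Rag genes had somewhat higher values in KO ALP and lower ones in KO preproNK, and no difference was called. Both pairs showed these signs for Rag1 and Rag2, as for 3.77% of tested genes, and 3.19% showed the opposite signs. Both KO ALP values of Rag2 lay above both WT ALP values, which held for 8.68% of tested genes. Rag2 differed by 0.49 in ALP (SE 0.43, adjusted p = 1 by limma) and by -1.07 in preproNK (SE 0.43, adjusted p = 0.613, unadjusted p = 0.0384). Rag1 differed by 0.29 in ALP (SE 0.46, adjusted p = 1) and by -0.64 in preproNK (SE 0.46, adjusted p = 0.613). Its preproNK difference was -0.07 without WT preproNK replicate 2 and -1.20 without WT preproNK replicate 1, and its ALP difference was 0.13 without KO ALP replicate 1 or WT ALP replicate 2 and 0.44 without either of the other ALP arrays. The ALP difference of Rag2 was 0.31 without KO ALP replicate 1, 0.21 without WT ALP replicate 2 and 0.78 without WT ALP replicate 1. Over all genes 0% were called in either knockout comparison, with 5 and 625 genes at an unadjusted limma p under 0.05 in ALP and preproNK. Nfil3 itself was tested and thus not called either. In preproNK all Rag2 values were below the array medians, so the difference there lies in the range near background. With values set to the array median it was -0.15. Without WT preproNK replicate 1, which leaves the compressed array as the only WT preproNK sample, the Rag2 difference was -1.51 and was called (adjusted p = 0.0397), as were 2532 genes in all. Without WT preproNK replicate 2 the Rag2 difference was -0.63, and blocking on replicate number in addition gave -0.46 (adjusted p = 0.962).

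The interaction tested whether the stage difference depended on Nfil3. It was -0.38 for Dntt (SE 0.54, 95% interval -1.64 to 0.87), -0.92 for Rag1 (SE 0.66, -2.44 to 0.60) and -1.56 for Rag2 (SE 0.61, -2.97 to -0.15). Each had an adjusted p of 1 by limma, and 0% of all genes were called. Single arrays moved these values. Without WT preproNK replicate 2, the compressed array, the interaction was -0.36 for Rag1 and -1.12 for Rag2, and without WT preproNK replicate 1 it was -1.49 for Rag1 and -2.0 for Rag2. For Dntt it ran from -0.73 without WT ALP replicate 1 to -0.04 without WT ALP replicate 2, and was -0.20 without KO ALP replicate 1. The fall of Rag2 called in KO and not in WT is therefore not shown to differ between them.

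**Figure D3:**
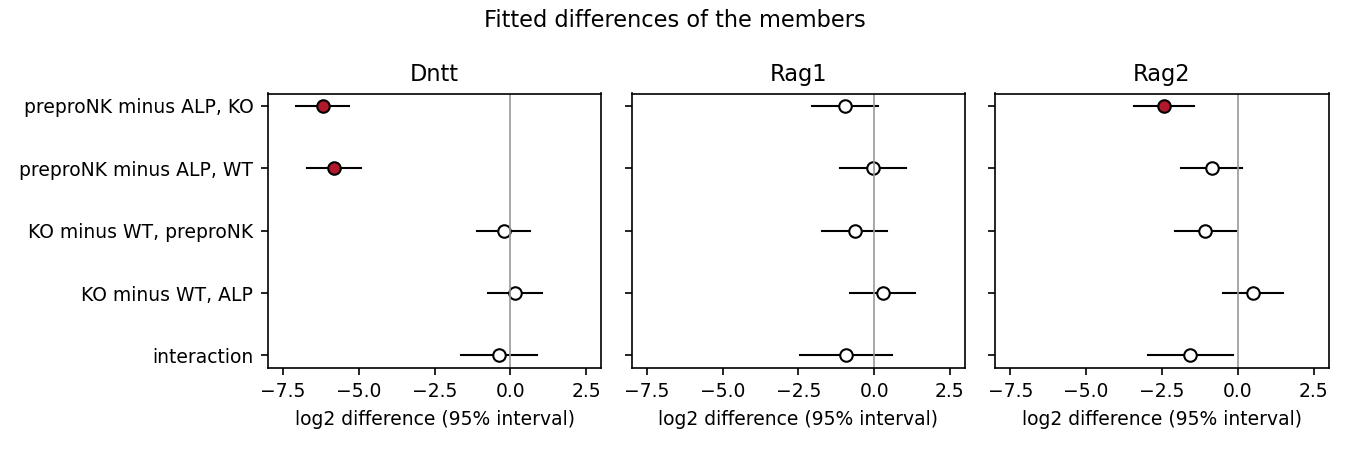
Fitted log2 differences of Dntt, Rag1 and Rag2 (points) with 95% intervals (lines) for preproNK minus ALP in KO and WT cells, KO minus WT in preproNK and ALP, and the interaction; filled points had an adjusted p under 0.05. The filled points are the Dntt stage differences in KO (-6.20) and WT (-5.81) and the Rag2 stage difference in KO (-2.42).

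The genes with the pattern most like Dntt over the 8 arrays were markers of early progenitors and less known genes. Likeness was the root mean square difference between log2 values after each gene was centred on its own mean. The 5 nearest were Sh2d5 (0.446), Cd34 (0.458), a surface sialomucin of progenitors, Adgrg1 (0.589), an adhesion receptor, Flt3 (0.734), a cytokine receptor of early lymphoid progenitors, and Bcl11a (0.888), a zinc finger factor needed for lymphoid development. Sh2d5 averaged 3.62 in KO preproNK and 3.40 in WT preproNK, against 8.89 in KO ALP and 8.57 in WT ALP. Adgrg1 averaged 5.19 and 5.20 in KO and WT preproNK, against 10.10 and 10.09 in KO and WT ALP. For Rag2 the nearest genes were Lrrc75a (0.209), Mmp11 (0.222), Ncs1 (0.223), Klhl30 (0.229) and Capn5 (0.234), and for Rag1 they were Spata24 (0.115), Ntpcr (0.126), Pam (0.135), Dync2li1 (0.143) and Hrob (0.145). Small distances are easily reached by genes that vary little, so those of Rag1 and Rag2 are not comparable with those of Dntt. For Dntt the large stage difference weighs most in the distance, so genes with large stage falls come nearest. Cd34, Flt3 and Bcl11a recur with the same values in the lists below. Without WT preproNK replicate 2, Il12a (0.443) came nearest to Dntt and the list for Rag1 shared none of the 5 names.

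Several early lymphoid progenitor genes fell in the same comparison as Dntt. The part of the markers used for sorting in these falls was not tested. Of 12 listed genes 10 were tested, and 5 of them were lower and 0 higher in preproNK over both genotypes, against 1.61% and 1.77% of all genes. The median difference was -1.99 log2, against -0.01 over all tested genes. Cd34 fell by 5.25 (SE 0.35, adjusted p = 0.000884), Flt3 by 4.64 (SE 0.35, adjusted p = 0.00135), Blnk, an adaptor of the B cell receptor, by 3.26 (SE 0.28, adjusted p = 0.00197) and Cd93 by 3.52 (SE 0.51, adjusted p = 0.0124), all by limma. Cd34 and Blnk were below the array median on all preproNK arrays, and with such values set to it Cd34 was at least 16.9-fold lower and Blnk at least 5.66-fold lower, both still called (adjusted p = 0.00343 and 0.0048). The fifth was Mef2c, a factor of lymphoid progenitors. Ccr9, a chemokine receptor, went the other way without passing the test (1.63, SE 0.73). The count was 3 without either KO preproNK array, either KO ALP array or WT ALP replicate 1, and 7 without WT preproNK replicate 2.

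Known transcriptional regulators of Rag and Dntt moved in both directions. Of 23 listed genes 22 were tested, and 5 fell while 3 rose in preproNK over both genotypes, against 1.61% and 1.77% of all tested genes, with a median of -0.41 log2. Sox4, an HMG box factor of B and T progenitors, averaged 4.91 ± 0.12 in KO preproNK and 5.29 ± 0.21 in WT preproNK, against 8.88 ± 0.48 in KO ALP and 8.85 ± 0.55 in WT ALP (SD, n = 2 each). It was the one regulator called within each genotype (-3.97, adjusted p = 0.00851 and -3.57, adjusted p = 0.0401 by limma), and all 5 of its probe sets were lower, by 2.81 to 4.10. Bcl11a fell by 4.39 (SE 0.40) and Tcf4, an E protein, by 3.53 (SE 0.59). Erg (-2.05, SE 0.34) and Myb (-1.99, SE 0.37) fell as well. Ikzf3, which encodes the Ikaros relative Aiolos, rose by 5.36 (SE 0.73), Lef1 by 3.57 (SE 0.67) and Id2 by 3.38 (SE 0.49). Myb was below the array median on all preproNK arrays and Lef1 on all ALP arrays. Myb was also below it on 1 WT ALP array, and Lef1 on 1 WT preproNK array. With values set to the median, Myb was 1.54-fold lower and Lef1 5.98-fold higher, so these folds are not lower bounds. Neither was called (adjusted p = 0.429 and 0.0843 by limma). Id2 is also the reporter gene of these mice, and whether the sort used the reporter is not stated in the labels.

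The E proteins Tcf3 (-0.42, SE 0.23) and Tcf12 (0.06, SE 0.39), and Foxo1 (0.23, SE 0.32), an activator of the Rag genes in B cells, had no called difference. Pax5 (-0.06, SE 0.39) was not called either, and Ebf1, the other regulator of B cell commitment, was below the filter. The number of regulators called was 2 without KO preproNK replicate 1, KO preproNK replicate 2 or KO ALP replicate 1, 3 without KO ALP replicate 2 or WT ALP replicate 1, and 11 without WT preproNK replicate 2.

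Few genes of the general machinery that completes recombination were called. Of 16 cofactors of cleavage and end joining factors 14 were tested, 1 fell and 1 rose, against 1.61% and 1.77% of all tested genes, and the median was -0.24 log2. Xrcc6, which encodes the Ku70 subunit that holds broken ends, averaged 4.74 ± 0.06 in KO preproNK and 3.90 ± 1.11 in WT preproNK, against 7.37 ± 1.05 in KO ALP and 6.77 ± 1.41 in WT ALP. Its difference was -2.75 (SE 0.57, adjusted p = 0.0463 by limma), and the dimmer probe set of the gene differed by -0.77. Its partner Xrcc5 (0.39, SE 0.37), the kinase gene Prkdc (-0.24, SE 0.36), Xrcc4 (0.06, SE 0.32), H2ax (-1.52, SE 0.41), and Hmgb1 (0.28, SE 0.33) and Hmgb2 (-0.59, SE 0.44), whose proteins bend DNA for the recombinase, were not called. Both calls of this list were lost with values set to the array medians, with arrays centred on their medians and without a filter on dim genes, and without KO preproNK replicate 1 or replicate 2, KO ALP replicate 1 or replicate 2, or WT ALP replicate 1 the count was 0.

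Polm was the one relative of Dntt that rose. It encodes the polymerase nearest to TdT in the X family, and had log2 values of 5.57 and 5.33 in KO preproNK and 5.62 and 4.37 in WT preproNK, against 3.30 and 3.67 in KO ALP and 3.62 and 3.46 in WT ALP. The difference over both genotypes was 1.71 log2 (SE 0.33, adjusted p = 0.0376 by limma), opposite in direction to Dntt. All its ALP values were below the array medians, and set to them Polm was at least 2.33-fold higher and not called (adjusted p = 0.0979). The Polm call held without either WT preproNK array and was lost without any 1 of the other arrays (adjusted p = 0.109 to 0.212), with centred arrays (0.0767) and without a filter (0.0511). Poll (-0.90, SE 0.30, adjusted p = 0.203) and Polb (0.31, SE 0.32, adjusted p = 0.828), the other members of the family, were not called. Across the 3 tested genes the median was 0.31.

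**Figure D4:**
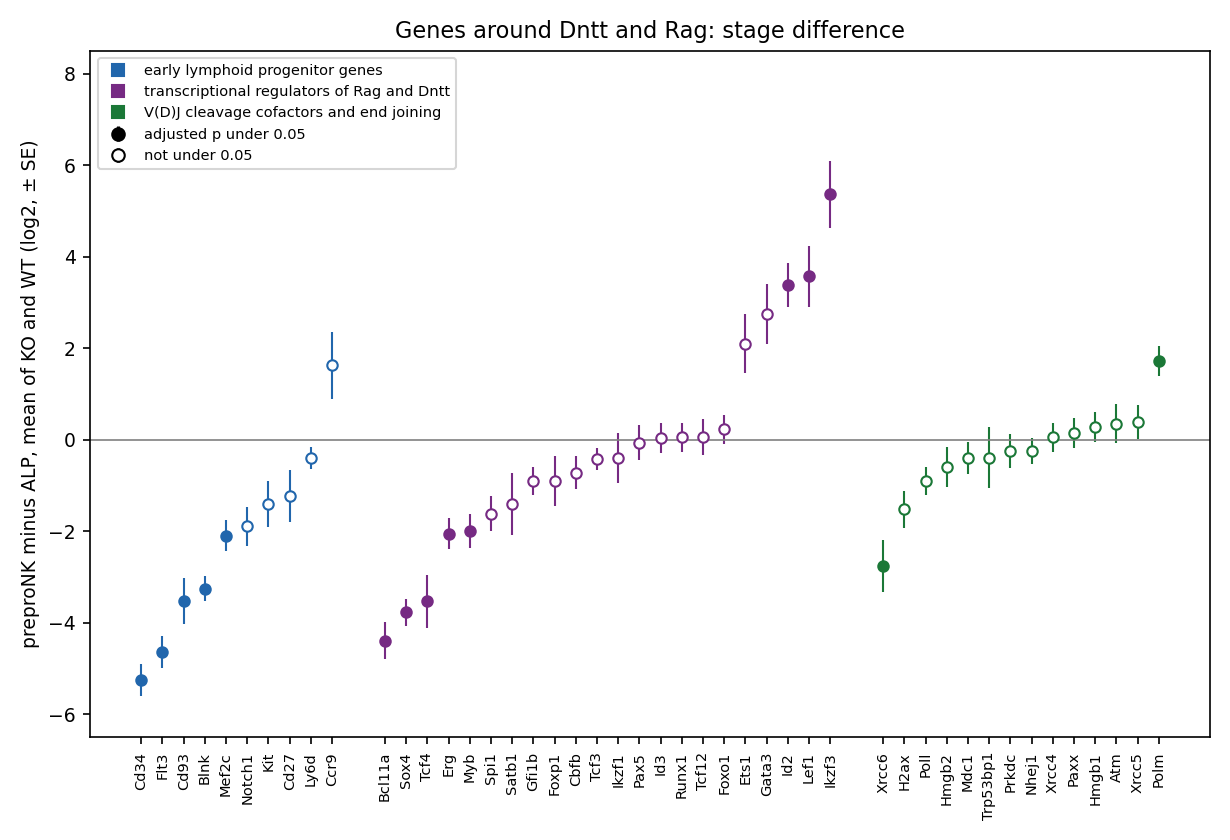
Log2 difference between preproNK and ALP (mean of KO and WT) with its SE for the tested genes of 3 lists: early lymphoid progenitor genes (blue), regulators of Rag and Dntt (purple) and cleavage cofactors and end joining factors (green); filled points had an adjusted p under 0.05. Cd34 (-5.25, near background in preproNK) and Bcl11a (-4.39) are lowest in their lists, Ikzf3 (5.36) is highest of all, and most end joining genes lie near zero.

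Neighbouring genes were compared to see whether the changes were shared along the chromosome. Before Dntt on the chromosome, Blnk ends 35.1 kb away and fell by 3.26 log2, as given above. Opalin, 2.4 kb after Dntt, differed by -0.26 (SE 0.26), Tll2 by 0.02 (SE 0.31) and Tm9sf3 by -0.48 (SE 0.45), none of them called by limma (adjusted p = 0.825, 0.993 and 0.809). Zfp518a and Ccnj were below the filter. At the Rag locus, Iftap overlaps Rag2 in the annotation and differed by -0.23 (SE 0.26, adjusted p = 0.854). Traf6, 28.9 kb beyond Rag1, differed by 0.32 (SE 0.29, adjusted p = 0.793) and Commd9 by -0.03 (SE 0.24, adjusted p = 0.989). On the far side of Iftap the next tested genes were distant. Lrrc4c lies 3993 kb from Rag2 (-0.09, SE 0.27) and Api5 7186.5 kb from it (-0.32, SE 0.48). Neither was called, and Prr5l and Ttc17 were below the filter. Of the 9 neighbours tested, Lrrc4c and Api5 included, Blnk alone was called, against 1.61% of all tested genes called lower and 1.77% higher.

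**Figure D5:**
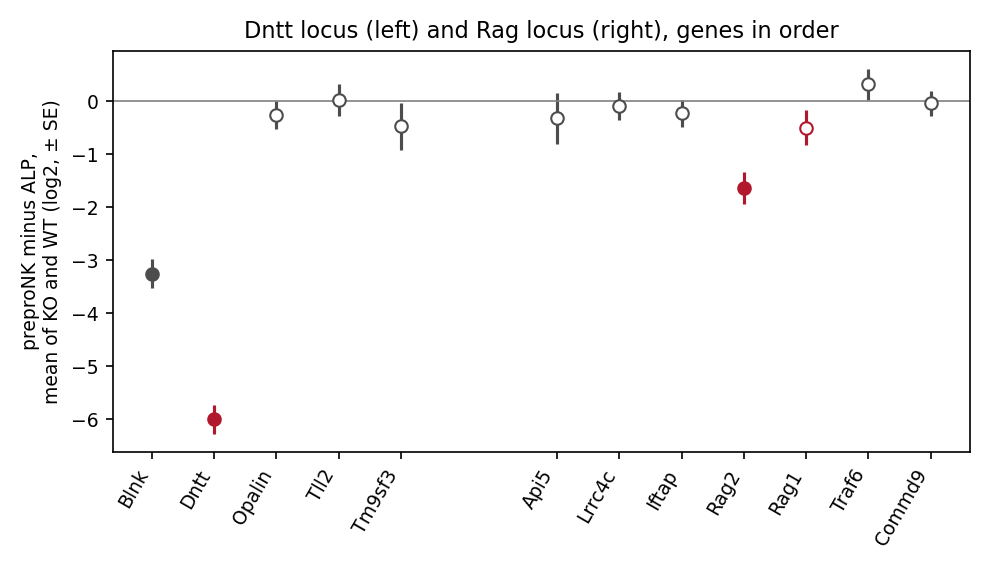
Log2 difference between preproNK and ALP (mean of KO and WT) with its SE for Dntt and its tested neighbours (left) and for Rag2, Rag1 and theirs (right), in the order along the chromosome and not to distance; members are red, and filled points had an adjusted p under 0.05. Dntt (-6.00), Blnk (-3.26) and Rag2 (-1.64) are filled, and the other neighbours lie between -0.48 and 0.32.

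Markers of other cells that can carry these transcripts were read beside them. Of 10 B lineage markers 5 were tested and 0 were called between preproNK and ALP. Of all tested genes 1.61% were called lower and 1.77% higher, so 0 calls among so few genes say little. Their summed level over 8 probe sets was 220.7 to 225.2 in KO preproNK and 159.4 to 287.8 in WT preproNK, against 211.4 to 214.8 in KO ALP and 206.1 to 233.6 in WT ALP (linear scale). Ms4a1, the gene of CD20, was below the array median on all 8 arrays, and Ebf1 on all but WT preproNK replicate 2. Of 9 plasmacytoid dendritic cell markers 7 were tested and 3 fell, against 1.61% of all tested genes. These were Tcf4, Irf8 (-2.96, SE 0.37, adjusted p = 0.0076 by limma) and Cox6a2 (-2.44, SE 0.31, adjusted p = 0.0084). Ccr9 went the other way (1.63), and Ly6d (-0.40), Klk1 (-0.11) and Pacsin1 (-0.05) differed little; none of them was called. The summed level of all 7 markers was 374.7 to 428.7 in KO preproNK and 408.1 to 909.1 in WT preproNK, against 1693 to 1887 in KO ALP and 1057 to 1500 in WT ALP. On WT preproNK replicate 1, which gave the 909.1, Ccr9 was the brightest of the 7 (log2 value 9.23). Tcf4 and Irf8 are also used by lymphoid and dendritic progenitors. Of 10 myeloid markers 8 were tested and 0 were called, beside the same shares of all tested genes, which also says little. The summed levels were 1131 to 1395 in KO preproNK and 349.5 to 1134 in WT preproNK. They were 1061 to 2095 in KO ALP and 983.3 to 1866 in WT ALP. The part of dendritic cells or their progenitors in the level of Dntt and Rag2 in ALP was not tested.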

How the data were processed

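RNA of sorted cells was amplified for 23 cycles and hybridised to 8 one-colour arrays, per the labels' protocols. Each probe set has a deposited log2 value. Per the submitters' processing notes, the authors used RMA and Partek; the sources used here give no settings. Without detection calls, a value under the median of its array was treated as near background. A fold against such values is written as at least that many fold, unless the brighter side held such values too. Precision is limited by the number of arrays.

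The platform annotation gave 1 symbol to 28898 of 45141 probe sets, several to 551 and none to 15692, and 28689 matched RefSeq. The probe set with the highest mean stood for a gene, which was tested if above the array median on at least 2 arrays, which left 11583 of 17097 genes. Group means were fitted to all 8 arrays with limma 3.58.1 (R 4.3.3, lmFit and eBayes, 4 residual degrees of freedom). Tests were two-sided, adjusted p-values (Benjamini and Hochberg) cover all tested genes, and a call is an adjusted p under 0.05. Permutation p-values were exact and unadjusted for the 3 genes. The fit was tested on simulated data. Nothing states that samples came from separate mice, so p-values measure only how far these samples spread, and that spread may be technical.

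Per the series design, replicates 1 and 2 were processed on separate dates, so the number pairs the samples. Across genes, same-numbered arrays of different groups deviated together, with correlations of 0.149 to 0.807. The block was an alternative, beside leaving out arrays, other normalizations, no filter, other uses of the probe sets and array weights. The floor at the array median was added after seeing the data. Genes and lists were chosen with earlier results of these data known. Named genes were the members, the 5 genes most like each, the 3 nearest coding genes on each side, and of each list up to 4 called genes per comparison; further list genes were named after their values were seen.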

Additional observations from a re-analysis of the deposited data

Results flagged for a closer look

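The knockout difference of the Rag genes had opposite signs in the 2 populations, in both replicate pairs. For Rag2, KO minus WT was -0.60 and -1.54 in the preproNK pairs and 0.40 and 0.59 in the ALP pairs (log2, replicate 1 and replicate 2). The interaction was -1.56 (SE 0.61, unadjusted p = 0.0338, adjusted p = 1 by limma). For Rag1 the differences were -0.31 and -0.96 in preproNK and 0.29 and 0.29 in ALP, and the interaction was -0.92 (SE 0.66, unadjusted p = 0.199, adjusted p = 1 by limma). Of all tested genes 3.77% showed the same order of signs and 3.19% the opposite one. The values of both genes in preproNK were below the array median on all arrays, apart from Rag1 on WT preproNK replicate 2, and with values set to that median the interactions were -0.64 for Rag2 and -0.29 for Rag1. Without WT preproNK replicate 2 they were -1.12 for Rag2 and -0.36 for Rag1, and -0.96 and -0.33 with the replicate block in addition.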

How the results depend on the processing

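Of 348 recomputed values of the 3 genes, 316 kept direction and side of the threshold, 24 lost a call, 2 gained one and 6 changed sign. With the replicate number as a block no call of Dntt, Rag1 or Rag2 changed, and the stage difference of Rag2 stayed at -1.64 (adjusted p = 0.0148 by limma). Leaving out 1 array gave Dntt stage differences of -6.39 to -6.01 in KO and -6.16 to -5.46 in WT, and Rag2 ones of -1.86 to -1.42 over both genotypes and -2.61 to -2.24 in KO. It gave Dntt a knockout difference of -0.193 to 0.504 in ALP, Rag2 one of -1.51 to -0.631 in preproNK and Rag1 a WT stage difference of -0.603 to 0.53. Interactions ran from -0.733 to -0.0354 for Dntt, from -1.49 to -0.356 for Rag1 and from -2.0 to -1.12 for Rag2. The permuted stage differences were -1.97 to -1.45 for Rag2 and -0.792 to -0.311 for Rag1. With only the groups compared, Dntt in WT was -5.81 but not called (adjusted p = 0.326 by limma). Arrays centred on their medians gave Rag2 in KO -2.44 (adjusted p = 0.0536), and repeated quantile normalization turned the knockout difference of Dntt in ALP to -0.0208. Values set to the array median gave Rag2 -0.786 over both genotypes and -1.11 in KO, and Rag1 0.129 in WT. Centring moved the median knockout difference of all genes in preproNK from 0.147 to 0.296, and the share of calls that were higher in the WT stage comparison from 36.4% to 0% (58.6% with quantile normalization).

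Dntt had the most negative stage difference over both genotypes in 17 of 18 settings, and ranked 3 when each of 26240 probe sets was tested. Counts of called genes moved more. For both genotypes 391 became 852 with the block, 740 by probe set, 1661 with the block and without WT preproNK replicate 2, and 35 to 1058 without 1 array. In KO 203 became 449, 379, 1238 and 0 to 530 in the same order, and 1234 with only the groups compared, 116 with centring and 902 with array weights. In WT 11 became 67 with the block, 431 with the block and without WT preproNK replicate 2, 70 with quantile normalization, 6 without a filter, 3 with centring, 1 with array weights, 0 with only the groups compared and 0 to 824 without 1 array. In preproNK 0 became 10 with the block, 47 with the block and without WT preproNK replicate 2, and 0 to 2532 without 1 array. Over both genotypes the regulators called were 2 to 12 and the early progenitor genes 3 to 7 without 1 array, against 8 and 5. The causes were not tested.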
